A study of Mus musculus with 3 samples.

Results

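Toll-like receptors are the membrane proteins with which mammalian cells sense microbial and other danger-associated molecules. Receptors of the cell surface bind lipids, lipoproteins and proteins of microbes, whereas receptors of endosomes bind nucleic acids. All of them except Tlr3 signal through the adaptor Myd88, and Tlr4 needs the co-receptor Ly96, also called MD-2, to bind lipopolysaccharide. In the stomach they are found on immune cells, stromal cells and, at low levels, epithelial cells. Described here are 10 genes of this system, taken as the array spots named after them: the surface receptors Tlr1, Tlr2, Tlr4 and Tlr5, the endosomal receptors Tlr3, Tlr7, Tlr9 and Tlr13, the adaptor Myd88 and the co-receptor Ly96. They were covered by 11 of 39429 probes, and by 29 of the 43020 gene spots on each array.

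RNA came from 3 primary diffuse-type gastric cancers of mice with the genotype Atp4b-Cre+;Cdh1loxP/loxP;Trp53loxP/loxP and from a pool of normal gastric mucosa of 5 mice with the genotype Atp4b-Cre-;Cdh1loxP/loxP;Trp53loxP/loxP, all aged 12 months. Both groups thus carried the floxed alleles of Cdh1, which encodes E-cadherin, and of Trp53, which encodes p53. The recombinase is under the promoter of the parietal cell gene Atp4b, so recombination begins in cells that use this promoter. The stroma of the normal mucosae had been stripped off in 30 mM EDTA, a step the labels do not give for the cancers. Each cancer was labelled with Cy5 (red) and hybridised together with the Cy3-labelled (green) pool, so every value is a log2 ratio of tumour over pool. A gene counted as called when limma gave an adjusted p under 0.05 and the mean difference was at least 2-fold.

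The pool is a single control sample, so these tests leave out the spread among normal mice, and with cancers always in red a dye effect remains in every ratio. Between 64.0 and 66.8% of gene spots were well above background in red, between 52.5 and 54.2% in green, and none was saturated. The median SD between arrays was 0.21 for the log2 ratio of the 15522 genes with signal clear of background in red and in green on each array. Cdh1 had a log2 ratio of -4.24 and Atp4b one of -6.83, both called lower (limma, adjusted p = 0.00185 and 0.000244), while Trp53 had -0.21 and was not called. Trp53 was dim, at 6.21 to 6.54 in red and 6.60 to 6.67 in green on the log2 scale. Its mean was -0.72 with the scanner software's processed signals, -0.98 when centred on spike-ins and -0.15 with median centring, called under none of these. Whether the Cdh1 and Trp53 probes lie inside the deleted parts is not given in the sources used here. Marker lists of immune and stromal cells moved with the groups: 9 of 11 macrophage genes, 7 of 11 neutrophil genes, 2 of 6 dendritic cell genes, 4 of 6 B cell genes, 3 of 6 T cell genes, 6 of 7 fibroblast genes and 3 of 7 endothelial genes were called higher and none lower. With the adjusted p alone, 1 T cell gene (Cd4, -0.65) and 1 endothelial gene (Kdr, -0.76), both chosen after their values were seen, were lower. Of 7 epithelial genes, 2 were called higher and 3 lower. Over all genes tested, 9.37% were called higher and 9.7% lower, and 22.9% were lower with the adjusted p alone.

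Among the members, Tlr13 and Tlr2 were called higher in the cancers, by 5.32-fold and 3.1-fold. Tlr1 and Tlr7 passed the adjusted p but stayed below 2-fold, while Tlr4, Tlr3, Tlr9, Myd88 and Ly96 did not pass. Tlr5 was too dim to be tested. Thus 2 of the 9 members tested were called higher, against 9.37% of all 19353 genes, and 0 were called lower, against 9.7% of all genes. At an unadjusted p under 0.05 limma gave 4 members higher, against 29.9% of all genes, and 1 lower, against 26.5%, the latter being Tlr4. With the adjusted p alone, 4 members were higher, against 24.5% of all genes, and 0 were lower, against 22.9%. The median log2 ratio was 0.29 over the 9 members and 0.05 over all genes tested. The stroma was stripped from the pool, a step not given for the cancers, so tumour and preparation cannot be told apart in these ratios. In RNA from mixed cells, fewer cells of a type and less RNA per cell cannot be told apart either. The same holds for more cells and more RNA.

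**Figure D1:**
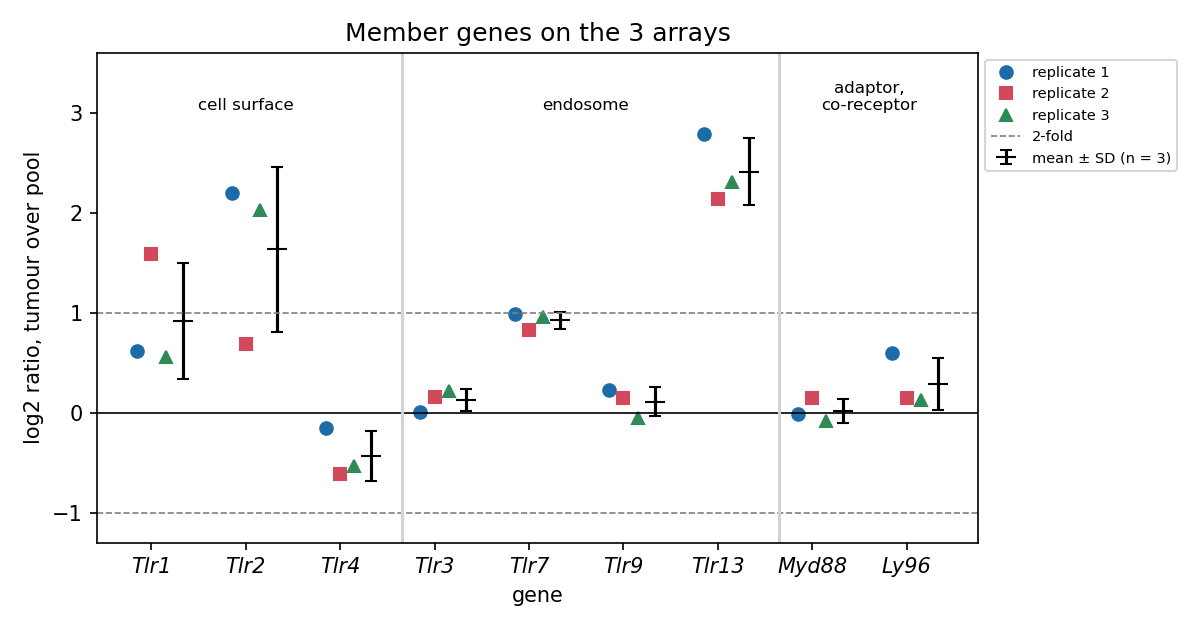
Log2 ratios of tumour over pool (vertical axis) for the 9 members tested, with one symbol per replicate and the mean ± SD (n = 3) in black; dashed lines mark 2-fold. All 3 tumours lie above 2-fold for Tlr13, replicate 2 stands low for Tlr2 and high for Tlr1, and the points of Tlr9 and Myd88 lie on both sides of 0.

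Tlr2 recognises bacterial lipoproteins as a dimer with Tlr1 or Tlr6. Its log2 ratios were 2.19, 0.68 and 2.02 on replicates 1, 2 and 3, at a probe on chromosome 3 from 83640344 to 83640403 of mm9, the build of the array's coordinates. All 3 cancers were above the pool, replicates 1 and 3 by about the same amount and replicate 2 by much less. The mean was 1.63 ± 0.83 (SD, n = 3; limma, adjusted p = 0.0186). The probe was printed 10 times on each array. The SD between its 9 spots in use was 0.08, 0.06 and 0.09 on replicates 1, 2 and 3. These spots share 1 labelling and hybridisation, so their SD holds spot noise alone and no error between arrays. The call rested on 3 arrays: the adjusted p was 0.0572 without replicate 1 (mean 1.35) and 0.097 without replicate 3 (mean 1.44), and the mean without replicate 2 was 2.11 (adjusted p = 0.00636).

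Tlr1, a partner of Tlr2 for triacylated lipoproteins, gave log2 ratios of 0.61, 1.59 and 0.56 on replicates 1, 2 and 3 (chromosome 5, 65316115 to 65316174). Here replicate 2 was the highest of the cancers, opposite to Tlr2. The mean was 0.92 ± 0.58 (SD, n = 3; limma, adjusted p = 0.0360), below the 2-fold needed for a call. The pool was well above background at this probe on 2 arrays, and the result depended on how background was handled. The mean was 1.52 with an offset of 0 (adjusted p = 0.0118) and 2.30 with the scanner software's processed signals (adjusted p = 0.00724), and Tlr1 was called under both. Without replicate 2 the mean was 0.59. The Tlr1 ratio minus the Tlr2 ratio was -1.58, 0.90 and -1.46 on the 3 arrays, so the order of the 2 partners differed between cancers.

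Cell type markers also varied between the cancers. The neutrophil list had medians of 3.94, 1.5 and 1.90 on replicates 1, 2 and 3. Replicate 1 stood apart there, while replicates 2 and 3 were close, unlike in Tlr2. The same pool also read higher on that array for some of these genes, though not for Csf3r or Elane. Its green signals were 9.03, 8.14 and 8.11 on the log2 scale for S100a9 and 8.01, 7.31 and 7.04 for Ltf. The size of the gap between replicate 1 and the other arrays is therefore not read further. The summed level of the 11 neutrophil genes was 48400 to 224000 in red and 12600 to 13400 in green, on the linear scale of the normalised signals. Most of the green sum was 1 gene, Csf3r, at 13.4 to 13.55 in green on the log2 scale. It was not called (0.80) and was chosen after its values were seen. Camp, Ngp, Ly6g, Cxcr2 and Mmp8 were not well above background in the pool on any array. Like Tlr1, 4 lists were highest on replicate 2. The macrophage list had medians of 2.02, 2.45 and 2.17, the dendritic cell list 0.75, 1.40 and 0.45, the B cell list 0.89, 2.26 and 1.02 and the T cell list 0.99, 1.24 and 0.75. The Tlr1 ratio minus these medians had a mean of 0.05 ± 0.17 for dendritic cells, -0.07 ± 0.38 for T cells, -0.47 ± 0.20 for B cells and -1.29 ± 0.39 for macrophages (SD, n = 3). Tlr7, which was not highest on replicate 2, had similar mean differences of 0.06 ± 0.56 for dendritic cells and -0.07 ± 0.31 for T cells (SD, n = 3). Such closeness was thus not particular to Tlr1. The dendritic cell genes summed to 24900 to 30600 in red and 14700 to 16900 in green. Most of both sums was 1 gene, Siglech, at log2 levels of 14.51 to 14.68 in red and 13.77 to 14 in green. Siglech was not called (0.71) and was chosen after its values were seen, so the sums say little about the other genes of this list. Flt3 and Zbtb46 were not well above background in the pool. The B cell genes summed to 1970 to 7620 in red and 667 to 813 in green, with Ms4a1 and Fcrla among those not well above background in the pool. The T cell genes summed to 2010 to 2960 and 1590 to 1660, with Cd3g not well above background there. The part of these cells in the Tlr1 and Tlr2 values was not tested, and 3 arrays are too few for a correlation.

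**Figure D2:**
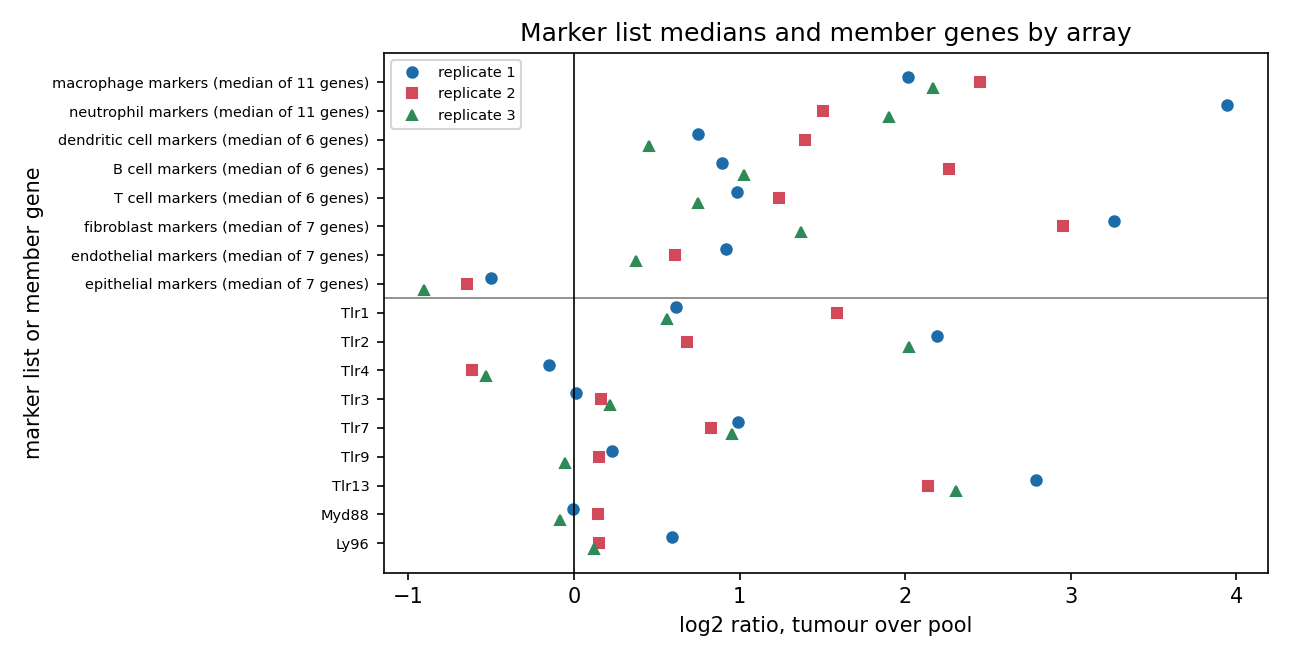
Log2 ratios of tumour over pool (horizontal axis) on each array, for 8 marker lists as the median of their genes (upper rows) and for the 9 members (lower rows). Replicate 2 is the highest array for Tlr1 and for the macrophage, dendritic cell, B cell and T cell lists and the lowest for Tlr2, while replicate 1 stands high for the neutrophil list.

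Tlr4, the receptor for lipopolysaccharide, had log2 ratios of -0.15, -0.62 and -0.53 on replicates 1, 2 and 3 (chromosome 4, 66503470 to 66503529). All 3 cancers were below the pool, replicate 1 only slightly. The mean of -0.43 ± 0.25 (SD, n = 3) was 1.35-fold lower, well short of 2-fold. Its adjusted p was just above 0.05 (limma, adjusted p = 0.0508). When centred on spike-ins the mean was -0.34 (limma, adjusted p = 0.412). With the scanner software's processed signals the mean was -0.73 with an adjusted p of 0.0303, and with median centring of the arrays it was 0.49, a change of direction. Relative to the median of all genes under that centring, which was 0.77, Tlr4 again lay low.

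Tlr5, the flagellin receptor, was well above background in 1 cancer, replicate 1, and not in the pool on any array. Its red processed signals were 40.8, 11.0 and 8.27 on replicates 1, 2 and 3, and its green ones 7.76, 6.24 and 7.26 (chromosome 1, 184906031 to 184906090). Only replicate 1 stood out from the pool, and no fold is given.

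Tlr13 recognises bacterial ribosomal RNA in endosomes and is absent from the human genome. It had the largest ratio of the members, with 2.79, 2.14 and 2.31 on replicates 1, 2 and 3 (chromosome X, 103355773 to 103355832). The red signal was 10.2, 9.81 and 9.97 on the log2 scale and the green signal 7.45, 7.67 and 7.66, so tumours and pool did not overlap. The mean was 2.41 ± 0.34 (SD, n = 3; limma, adjusted p = 0.00119), and it ranged from 2.22 to 2.55 when 1 replicate was left out, called each time. It was 2.97 with an offset of 0 and 3.20 with the scanner software's processed signals. The Tlr13 ratio minus the macrophage list median was 0.77, -0.31 and 0.14, with a mean of 0.20 ± 0.55 (SD, n = 3). The mean difference was -0.04 ± 0.97 from the neutrophil list and -0.12 ± 0.93 from the fibroblast list (SD, n = 3), so Tlr13 was not closer to 1 of these 3 lists beyond the spread. The 11 macrophage genes summed to 17700 to 26100 in red and 4160 to 4640 in green. Cd68 was the one of them not well above background in the pool. The 7 fibroblast genes summed to 44700 to 146000 in red and 14900 to 17100 in green. The part of these cells in the Tlr13 value was not tested.

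Tlr7, a sensor of single-stranded RNA, is also on chromosome X and had a pair of probes. At the brighter one (163742863 to 163742922) the log2 ratios were 0.99, 0.83 and 0.95 on replicates 1, 2 and 3. The cancers lay close together, all just under 2-fold, with a mean of 0.92 ± 0.08 (SD, n = 3; limma, adjusted p = 0.00304). The other probe (163743146 to 163743205) gave 0.46, 0.83 and 0.59, with a mean of 0.63 ± 0.19 (SD, n = 3) and an adjusted p of 0.0131 in a limma fit of all 24163 kept probes. Its green signal was not well above background on any array, so the cancers were at least 1.54-fold higher there, a bound that is open to dye bias. Both probes thus had the same direction. With an offset of 0 the mean of Tlr7 was 1.41 (adjusted p = 0.00233) and with the scanner software's processed signals 1.62 (adjusted p = 0.00369), and the gene was called under both settings.

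Tlr9, the sensor of unmethylated CpG DNA, had log2 ratios of 0.23, 0.15 and -0.05 on replicates 1, 2 and 3 (chromosome 9, 106128979 to 106129038). The mean was 0.11 ± 0.15 (SD, n = 3; limma, adjusted p = 0.423). Its signal was well clear of background in tumours and pool alike, at 8.61 to 8.93 in red and 8.66 to 8.70 in green, so the ranges overlapped. The Tlr7 ratio minus the Tlr9 ratio was 0.76, 0.68 and 1.01 on the 3 arrays, with a mean of 0.81 ± 0.17 (SD, n = 3).

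Tlr3 binds double-stranded RNA and signals through the adaptor Ticam1 in place of Myd88. Its log2 ratios were 0.01, 0.16 and 0.22 (chromosome 8, 46481729 to 46481788), with a mean of 0.13 ± 0.11 (SD, n = 3; limma, adjusted p = 0.310). The pool was not well above background there on any array, and the cancers barely so, with red signals of 6.32 to 6.58 against a lowest signal well above background of 5.41 to 5.85. The mean was -0.78 when arrays were centred on spike-ins and 0.88 from the processed signals, so no direction can be given for Tlr3.

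**Figure D3:**
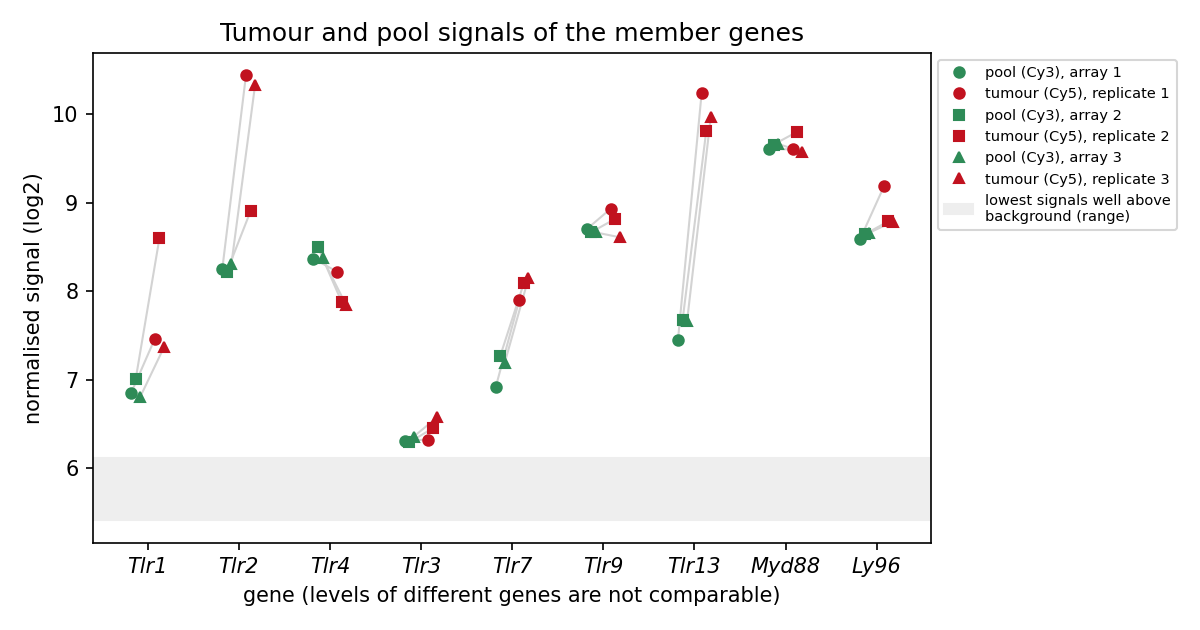
Normalised log2 signals of the 9 members tested in the pool (green, Cy3) and in the tumour (red, Cy5) of each array, joined by lines; the grey band spans the lowest signals well above background. Red lies clear of green for Tlr13, Tlr7, Tlr2 and Tlr1, slightly above it for Ly96 and below it for Tlr4. The colours overlap for Tlr9 and Myd88, and Tlr3 sits just above the band.

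Myd88 carries the signal of nearly all Toll-like receptors and of the interleukin-1 receptor family to the kinases Irak4 and Irak1. Its log2 ratios were -0.01, 0.15 and -0.09 on replicates 1, 2 and 3 (chromosome 9, 119245322 to 119245381), with a mean of 0.02 ± 0.12 (SD, n = 3; limma, adjusted p = 0.896). Like Tlr2 it was printed 10 times, with an SD between spots of the same array of 0.03 to 0.06. Red signals of 9.58 to 9.80 and green signals of 9.61 to 9.66 overlapped.

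Ly96, the co-receptor of Tlr4, had log2 ratios of 0.59, 0.15 and 0.12 on replicates 1, 2 and 3. The coordinates of its probe span 3273 bases of chromosome 1 (16696289 to 16699561), so it crosses a splice junction. All cancers were above the pool, replicate 1 most, and the mean of 0.29 ± 0.26 (SD, n = 3) did not pass (limma, adjusted p = 0.140). The Tlr4 ratio minus the Ly96 ratio was -0.74, -0.77 and -0.66 on the 3 arrays, with a mean of -0.72 ± 0.06 (SD, n = 3). Pairs that are not partners were similarly steady, with -2.85 ± 0.09 for Tlr4 minus Tlr13 and 2.13 ± 0.12 for Tlr13 minus Ly96 (SD, n = 3). For Myd88, Ly96 and Tlr9 the means were 1.14, 1.32 and 1.13 with median centring, which put the median of all genes at 0.77, and all of them were called higher there. With spike-in centring they were 0.31, 0.49 and 0.30, not called.

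Ordered by mean log2 ratio in the main fit, the members ran Tlr13, Tlr2, Tlr7, Tlr1, Ly96, Tlr3, Tlr9, Myd88 and Tlr4. This order depended on the processing. With the scanner software's processed signals Tlr1 (2.30) passed Tlr2 (1.87), and Tlr3 (0.88) passed Ly96 (0.15). When centred on spike-ins, Tlr3 was the lowest (-0.78). Of the neighbours in the order of the main fit, the pair at the top and the pair at the bottom differed by more than the SD of their difference. The Tlr2 ratio minus the Tlr13 ratio was -0.78 ± 0.61 (SD, n = 3), and the Tlr4 ratio minus the Myd88 ratio was -0.45 ± 0.31 (SD, n = 3), each of 1 sign on all 3 arrays. The other neighbours did not differ beyond that SD. The 36 pairs are described by their mean and SD, with no test run. An exact two-sided sign-flip test over 3 arrays could not have gone below 0.25. Against the macrophage list median, Myd88 lay at -2.20 ± 0.15, Tlr9 at -2.10 ± 0.28, Ly96 at -1.92 ± 0.45 and Tlr4 at -2.65 ± 0.45 (SD, n = 3 each). Each of these was below that median on all 3 arrays, as were Tlr1, Tlr3 and Tlr7. Tlr2 and Tlr13 lay on both sides of it.

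**Figure D4:**
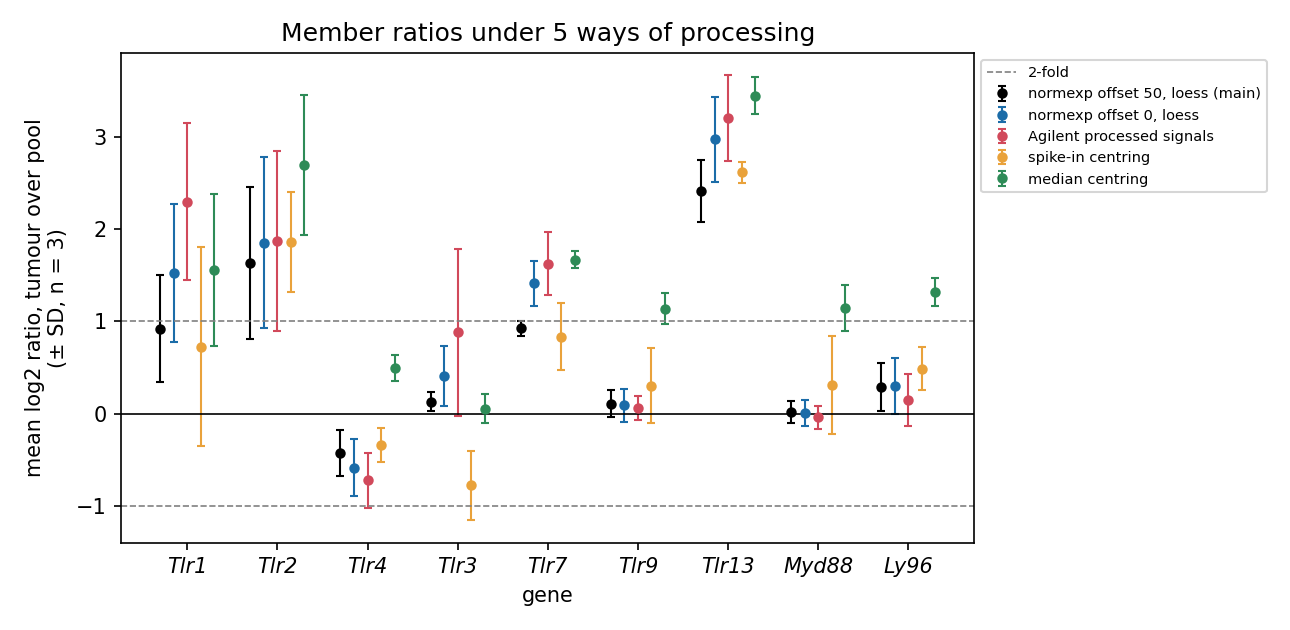
Mean log2 ratio of tumour over pool (± SD, n = 3) of each member tested, under 5 ways of correcting background and scaling the arrays; dashed lines mark 2-fold. Tlr13 and Tlr2 lie above 2-fold under all 5, Tlr1 and Tlr7 lie above it under 3, and centring on the median of gene spots lifts Tlr4, Tlr9, Myd88 and Ly96.

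Promoter sequence was compared for members that rose and members that stayed near 0. RefSeq promoters of build GRCm38.p6 were on hand for 7 members (8 promoters, of which Tlr1 has 2). The 250 bases before each start were searched on both strands for 4 motifs: GAGGAA, the core bound by the myeloid factor PU.1, the kappaB consensus bound by NF-kappaB, a pair of GAAA spaced by 2 bases, bound by interferon regulatory factors, and TGACTCA, bound by AP-1. The sequences of the 2 members called higher and of 2 members near 0 that were well above background are shown 5′ to 3′ on the strand of the gene, with motif matches in capitals. Tlr13 is chrX:106143025-106143274 (plus strand), Tlr2 chr3:83841609-83841858 (minus), Tlr9 chr9:106222348-106222597 (plus) and Myd88 chr9:119340019-119340268 (minus).
Tlr13: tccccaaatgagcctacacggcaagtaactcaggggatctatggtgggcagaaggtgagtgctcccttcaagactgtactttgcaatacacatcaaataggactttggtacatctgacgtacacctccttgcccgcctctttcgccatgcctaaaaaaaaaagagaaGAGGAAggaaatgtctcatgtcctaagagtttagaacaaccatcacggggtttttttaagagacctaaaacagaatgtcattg
Tlr2: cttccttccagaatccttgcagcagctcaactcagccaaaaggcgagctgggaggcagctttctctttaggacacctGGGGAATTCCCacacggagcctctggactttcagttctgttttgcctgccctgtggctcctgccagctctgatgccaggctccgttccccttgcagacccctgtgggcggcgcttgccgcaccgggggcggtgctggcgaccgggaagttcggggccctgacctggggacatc
Tlr9: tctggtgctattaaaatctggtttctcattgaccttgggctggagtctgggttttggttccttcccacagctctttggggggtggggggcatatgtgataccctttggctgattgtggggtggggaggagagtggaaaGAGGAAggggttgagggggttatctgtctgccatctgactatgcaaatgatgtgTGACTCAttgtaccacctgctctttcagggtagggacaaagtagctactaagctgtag
Myd88: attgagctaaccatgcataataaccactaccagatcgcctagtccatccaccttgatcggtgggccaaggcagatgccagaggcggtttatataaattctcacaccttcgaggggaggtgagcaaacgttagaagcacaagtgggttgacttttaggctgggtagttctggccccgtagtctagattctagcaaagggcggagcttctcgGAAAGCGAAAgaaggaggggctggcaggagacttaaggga

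Tlr13 held GAGGAA from base -83 to -78 before the start, Tlr9 held it from -112 to -107, and 1 of the Tlr1 promoters from -23 to -18. It was present in 23.3% of the 32851 promoters of that length. Tlr2 held a pair of overlapping kappaB matches from -173 to -163, and Tlr3 held 1 match from -211 to -202. The consensus was present in 7.25% of promoters. Myd88 held the paired GAAA motif from -40 to -31, a motif of 2.98% of promoters, and Tlr9 held TGACTCA from -58 to -52, a motif of 4.46%. GAGGAA thus occurred both in a member that rose and in one that stayed near 0. A match is a description of the letters, and binding was not measured here.

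Other genes of the pathway were taken from lists chosen with results of these data known. Of 100 such genes tested, 23 were called higher, against 9.37% of all genes, and 4 lower, against 9.7%. Their median log2 ratio was 0.49 against 0.05 for all genes. Among the remaining receptors 0 of 3 tested were called by limma. At an unadjusted p under 0.05 limma gave 2 higher, against 29.9% of all genes. Tlr6, a partner of Tlr2 for diacylated lipoproteins, had 0.74, 0.62 and 0.62 on replicates 1, 2 and 3 (mean 0.66 ± 0.07, SD, n = 3; limma, adjusted p = 0.00656), and was called at 1.21 with the scanner software's processed signals. It did not share the swing of Tlr1 and Tlr2 on replicate 2. Tlr8, a sensor of RNA, and Tlr12, a sensor of profilin, were chosen after their values were seen. Tlr8 had 0.39 ± 0.07 (SD, n = 3), with a pool not well above background on any array, and 2.82 with the scanner software's processed signals, where it was called. Tlr12 had -0.01, 1.26 and 0.38, highest on replicate 2 like Tlr1. Tlr11 was not tested.

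Of 9 further adaptors, co-receptors and chaperones tested, 4 were called higher and 2 lower, against 9.37 and 9.7% of all genes. Cd14, which hands lipopolysaccharide to Tlr4 and Ly96, had 3.89, 3.43 and 3.84 on replicates 1, 2 and 3 and was 13.2-fold higher on average (limma, adjusted p = 0.000461). Lbp, the lipopolysaccharide binding protein (2.52 ± 0.33), and Unc93b1, the chaperone that carries endosomal receptors out of the endoplasmic reticulum (1.82 ± 0.29), were also called higher and were chosen after their values were seen. Ly86, the partner of the Toll-like protein Cd180, rose by a mean log2 ratio of 3.17 ± 1.11, highest on replicate 2 at 4.41 (SD, n = 3 throughout). The scavenger receptor gene Cd36, a helper of Tlr2 and Tlr6, fell by 3.35 ± 0.23, and Ticam1, the adaptor of Tlr3 and Tlr4, fell by 1.08 ± 0.03, the latter chosen after its value was seen. Ticam1 was not called with median centring (-0.14) or when centred on spike-ins (-0.97). The lipopolysaccharide receptor complex therefore had Cd14 and Lbp called higher, with Tlr4 and Ly96 not called.

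Of 26 kinases, ubiquitin ligases and transcription factors tested, 2 were called higher and 0 lower, against 9.37 and 9.7% of all genes. Their median was 0.11. By limma at an unadjusted p under 0.05, 9 were higher and 7 lower, against 29.9 and 26.5% of all genes. These counts lay near those shares or below them. Irf8, a transcription factor of myeloid and B cells, had a ratio of 1.74 ± 0.61 and Irf5, which acts downstream of Myd88, one of 1.30 ± 0.53, both highest on replicate 2 (2.44 and 1.91; SD, n = 3). Without replicate 2 the mean of Irf5 was just under 2-fold, and it was not called. Of 14 inhibitors of the pathway 4 were called higher and 0 lower, against 9.37 and 9.7% of all genes, with a median of 0.46. At an unadjusted p under 0.05 limma gave 6 higher and 2 lower, against 29.9 and 26.5%. Tnfaip3, which encodes the deubiquitinase A20, had 1.98, 0.89 and 1.39 on replicates 1, 2 and 3, with an adjusted p of 0.0591 without replicate 3. Irak3, a kinase homologue that blocks Myd88 signalling, had 1.90, 0.97 and 1.30, and was at least 2.62-fold higher, since the pool was not well above background. Both were lowest on replicate 2, like Tlr2. Dok3, an adaptor that dampens signalling in immune cells, had 1.34 ± 0.32 (SD, n = 3).

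Of 19 inflammatory target genes 8 were called higher and 0 lower, against 9.37 and 9.7% of all genes, with a median of 1.56. By array, the list median was 2.40, 1.08 and 1.18 on replicates 1, 2 and 3. At an unadjusted p under 0.05 limma gave 14 higher and 0 lower, against 29.9 and 26.5%. The acute phase gene Saa3 had 6.14, 3.69 and 3.65 on replicates 1, 2 and 3, the cytokine gene Il1b 5.26, 2.68 and 1.93, and the siderophore binding gene Lcn2 3.22, 2.60 and 2.72. The same pool also read higher on that array for Saa3 (green signals of 9.22, 7.04 and 6.96 on the log2 scale) and Lcn2 (10.95, 8.25 and 8.43), so their ratios on replicate 1 are not set against the other arrays. Il1b had an adjusted p of 0.0539 without replicate 2, and its mean was 2.31 without replicate 1. The count of called target genes was 9, 5 and 5 without replicates 1, 2 and 3. It was 16 with the scanner software's processed signals, where 19.2% of all genes were called higher. In the pool, 8 of the 19 were not well above background on any array. Il1b, with green signals of 6.91 to 7.08, was highest on replicate 1, as was the median of the neutrophil markers, whose part in these values was not tested.

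Of 14 interferon-induced genes tested, 0 were called higher and 1 lower by limma, against 9.37 and 9.7% of all genes. At an unadjusted p under 0.05 limma gave 1 higher and 1 lower, against 29.9 and 26.5%. Their median was -0.28, 0.60 and 0.06 on replicates 1, 2 and 3. The member called lower was Oasl1, a relative of the oligoadenylate synthetases, at -1.28, -0.93 and -2.21, and it was not called with median centring (-0.08) or when centred on spike-ins (-0.91). Of 15 other pattern recognition and TIR-domain receptors 5 were called higher and 1 lower, against 9.37 and 9.7% of all genes. Their median was 0.68. Sting1, the adaptor of cytosolic DNA sensing, had 3.11, 3.31 and 3.19, one of the steadiest large differences among these genes (limma, adjusted p = 0.000389). The beta-glucan receptor gene Clec7a had 2.87 ± 0.92 and Il18r1, a receptor chain that signals through Myd88, 1.94 ± 0.33 (SD, n = 3).

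**Figure D5:**
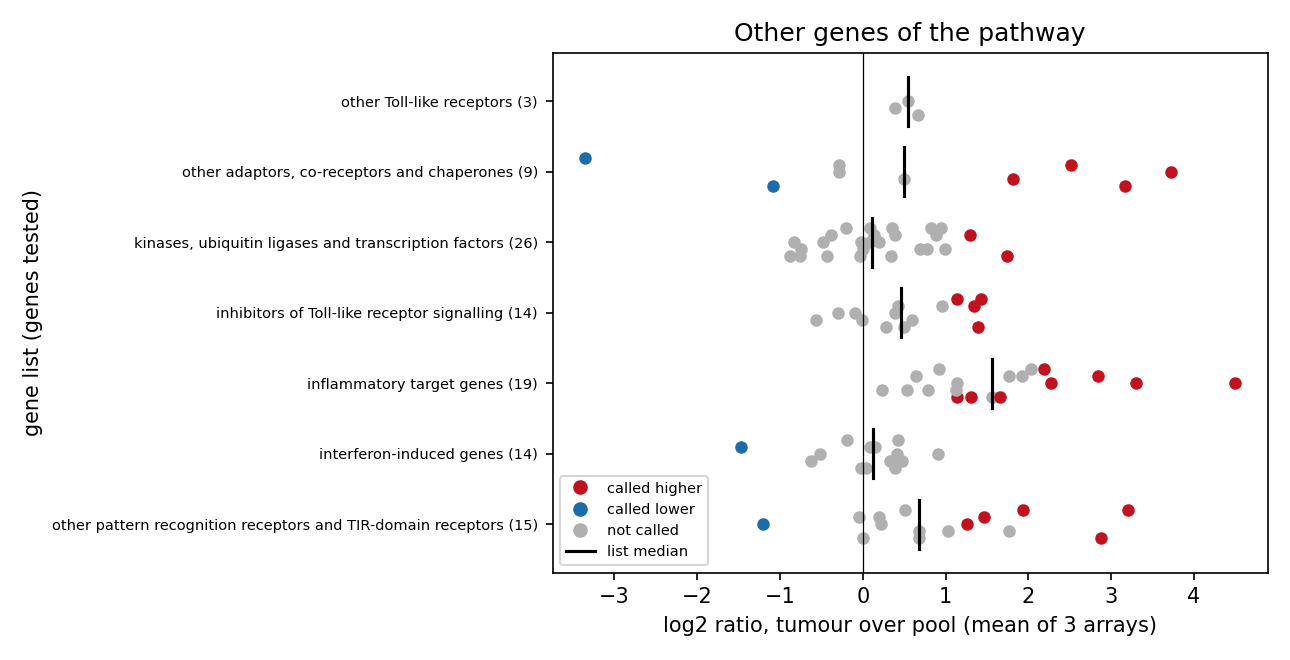
Mean log2 ratio of tumour over pool (horizontal axis) of each gene tested in 7 lists of the pathway, coloured by call, with a black bar at the list median. The inflammatory target genes have the highest median, 1.56, and the kinases and transcription factors lie around 0.11.

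For each member the 3 closest of 161 genes of the pathway and cell type lists were taken by the root mean square difference of their ratios on the 3 arrays. Tlr13 was closest to Lbp (0.117), Lcn2 (0.432) and C1qc (0.434). Tlr2 was closest to Tnfaip3 (0.404), Irak3 (0.483) and Cxcr2 (0.674), so no gene matched its pattern tightly. Tlr1 was closest to Cd40 (0.0412), Batf3 (0.212) and Fcrla (0.244), and Tlr7 to Nfkb2 (0.0476), Relb (0.121) and Irf9 (0.151). Tlr4 was nearest to Tab1, Tollip and Hsp90b1, Tlr3 to Zbtb46, Cd3e and Irak4, and Tlr9 to Il1rap, Pecam1 and Ikbke. Genes near Myd88 included Tab2 and Ripk1, and Ly96 was nearest to Nlrp3, Nfkb1 and Il1rap. With 3 arrays this measure describes similar values in these cancers and nothing more.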

How the data were processed

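Mean spot and median local background signals are intensity values, deposited as written by Agilent Feature Extraction (9.5.3 per the submitters' processing notes, 10.7.3.1 per the file headers). Per the file headers, this software also gives processed intensity signals, from which background and dye differences were removed, and a log10 ratio of red over green. The log2 ratios deposited in the authors' value table lay within 0.01 of that ratio, put on the log2 scale, for 99.75, 99.79 and 99.78% of the probes with a value. Their medians were -0.15, -0.13 and -0.11, and 48.3 to 49.6% of probes were blank for reasons not given in the sources used here. The 3 arrays were on 1 slide, with no dye swap.

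Signals were corrected with normexp (offset 50) and normalised by loess within arrays in limma 3.58.1 under R 4.3.3; the offset pulls ratios of dim genes towards 0. Control spots and outlier spots (157, 167 and 190) were left out and spots of a probe averaged. A probe was kept if all 3 arrays had it well above background in 1 of the colours. This left 24163 probes and 19353 genes, each by its brightest probe. RefSeq accessions named 26055 of 39429 probes. Two-sided tests of the ratio against 0 used lmFit and eBayes, and p-values were adjusted over all genes by Benjamini-Hochberg. The code was tested on simulated data. Levels are after Aquantile. A bound sets the red mean against the mean of, per array, the higher of the green signal and the lowest green signal well above background. Alternatives changed the background correction, scaling, filter, probe rule and replicates. Members and lists were chosen with earlier results of these data known. The text names all members, genes that check the labels, up to 3 called genes of each list by size (the brightest where none was called) and the nearest genes. The exon at each probe was not assigned. Of the genes named by this rule, 1 is not reported here.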

Additional observations from a re-analysis of the deposited data

Results flagged for a closer look

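The Tlr5 probe was left out of the test, since it was not well above background on all arrays in either colour. Even so, its red processed signal on replicate 1 was 40.8 against 7.76 in the pool on the same array, and was well above background there. This is 1 spot on 1 array, and on the other cancers the red signal was 11.0 and 8.27. The fitted ratio at the offset of 50 was 0.17 on replicate 1.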

How the results depend on the processing

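Tlr13 was called higher under all alternatives run, and Tlr2 under all but leaving out replicate 1 or 3. The count of members called higher was 4 with the scanner software's processed signals, 4 with an offset of 0 and 7 with centring on the median of gene spots, where 19.2, 16.4 and 40.0% of all genes were called higher, against 9.37%, and 1 to 2 with 1 replicate left out. No member was called lower under any alternative. Pathway genes called higher numbered 41, 42 and 59 of 100 under those 3 settings, beside the same shares of all genes (18 to 26 with 1 replicate left out), and 1 was called lower with either median or spike-in centring (4 to 6 with 1 replicate left out). Over all genes, 93.3% of calls were higher with median centring, against 49.1%. Directions that turned were those of Myd88 (-0.0421 with processed signals, -0.0396 with the authors' values, -0.0242 with centring on tested genes, and from -0.04745 to 0.0687 with 1 replicate left out), Tlr4 (0.49 with median centring), and Tlr3 (-0.78) and Tlr8 (-0.55) with spike-in centring. The cause was not tested. Signal over background limits Tlr3, Tlr5, Tlr8 and the second Tlr7 probe. No paired analysis was possible because the pool is 1 sample, present on every array.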
